A study of Trichoderma reesei with 18 samples.

Results

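The response to light was measured in Δ80186, a strain of the filamentous fungus Trichoderma reesei QM6a that lacks TR80186, which the series names as a MAP kinase kinase of the HOG pathway. All 10879 rows of the count table were taken and the 3 light libraries of Δ80186 were compared with its 3 dark libraries, which are 6 of the 18 libraries of the series. Mycelium of every group had been grown for 96 h on cellulose as the carbon source, either in constant darkness or in constant light. The wild type QM6a (WT) and Δ21168, a strain without the second MAP kinase kinase gene studied, of the pheromone pathway, had 3 libraries in each light condition as well. The library numbers of Δ21168 form a series apart from those of WT and Δ80186, and the labels do not say why. A difference between Δ21168 and the other strains cannot be told apart from one between these series. The labels do not say whether a deletion strain was 1 clone, nor whether replicate libraries stem from separate cultures. The p-values therefore measure the spread between these samples, which may be technical.

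In fungi the HOG pathway is a cascade of kinases in which a MAP kinase kinase phosphorylates the MAP kinase Hog1, and it is known for the response to osmotic stress. Light is sensed in filamentous fungi by blue light receptors of the white collar type, among others, and in Neurospora crassa the HOG MAP kinase is also under the control of the circadian clock. On cellulose, Trichoderma reesei secretes cellulases, and light is known to change the transcript levels of these enzymes.

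Library totals of Δ80186 were 11626426 to 13538215 counts in light and 13953910 to 15541825 in darkness, with no overlap. Rank correlations of counts were 0.995 to 0.997 within light, 0.991 to 0.997 within darkness and 0.912 to 0.925 between the conditions, across genes, which are not independent replicates. At least 1 read was found for 9585 ± 16.6 genes (SD, n = 3) in light and for 9913 ± 13.6 genes (SD, n = 3) in darkness, and the groups did not overlap (exact permutation test, two-sided p = 0.1, the smallest value that 3 against 3 libraries allow). Depth differed in the same direction as this count of genes, and its part in the count was not tested. The rows are identified by codes such as TrD0367C (a letter, a 4-figure number, then W or C), and the files do not pair them with gene names. The reads of TrD0367C numbered 1, 1 and 2 in darkness and 0 in each light library of Δ80186, against at least 751 in every library of the other strains. It was singled out by that loss, so it does not check the labels independently.

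Light changed the levels of 4836 of the 9079 genes that passed the filter on low counts, which is 53.3% of those tested (edgeR quasi-likelihood test, Benjamini-Hochberg adjusted p under 0.05). The 1800 rows that the filter removed were not tested. Of the genes called, 2532 (27.9% of those tested) were higher in light and 2304 (25.4%) were lower. This order of the directions depends on the scaling, since lower genes outnumbered higher genes with DESeq2 (2470 against 2376), with library totals (2497 against 2092), without the filter and in a fit of the groups compared alone. It also turned without dark replicate 1 (2251 against 1905). Across all genes tested the median log2 fold change was 0.04, and −0.02 with library totals as the scaling.

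Large changes were mainly losses in light. A change of at least 2-fold was found for 1773 genes (19.5%), of which 560 (6.17%) were raised and 1213 (13.4%) were lowered. The lowered genes were the more numerous in every alternative that was run, with 1169 to 1365 lowered and 510 to 557 raised. The excess widened with the size of the change, from 678 lowered and 199 raised genes at 4-fold or more to 273 and 50 at 16-fold or more. At 64-fold or more, 122 were lowered and 20 raised. Fitted folds of genes without a read in 1 of the groups depend on the fit's prior count, and with such genes set to the lower bound that 3 reads in that group give, the counts at 64-fold were 85 and 16. A test against a 2-fold change itself (edgeR glmTreat) called 1135 genes (12.5%), 827 lowered and 308 raised. The light and dark values did not overlap for 6247 genes (68.8%), and for 1759 of the 1773 genes changed at least 2-fold. The latter were chosen on the same libraries, so this is largely fixed by the choice. Of all 4836 genes called, 4793 did not overlap.

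**Figure D1:**
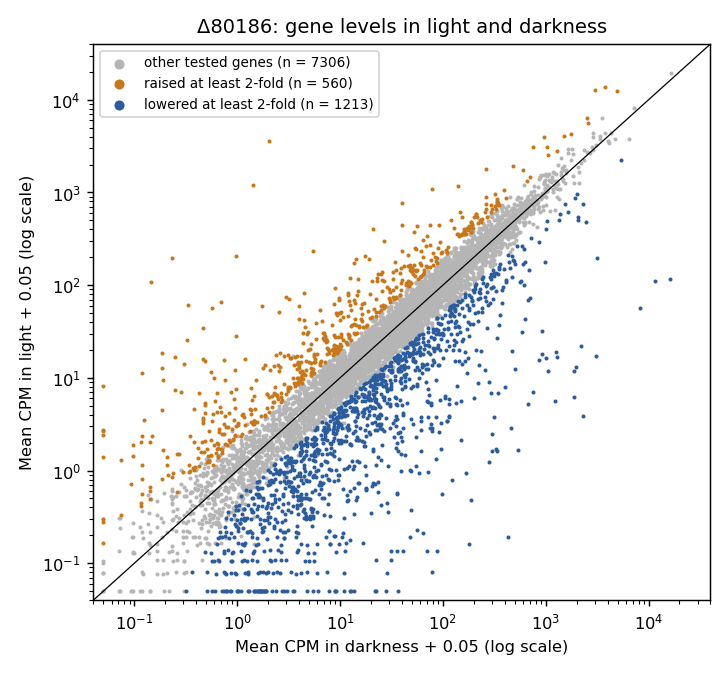
Mean level of each tested gene in Δ80186 in darkness (horizontal) and in light (vertical), in CPM on logarithmic axes. CPM are counts per 1e6 of the library size as scaled by edgeR's trimmed mean of M-values. There is 1 point per gene, coloured where the gene was called and changed at least 2-fold. An offset of 0.05 CPM was added so that levels of 0 can be drawn. The 1213 lowered genes below the diagonal are more numerous than the 560 raised genes above it, as in the counts by size of change.

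Losses were most frequent among genes with few reads. CPM values are given on library sizes scaled by edgeR's trimmed mean of M-values (TMM) and are not corrected for gene length, so a place in their order is a place by reads. Among the 1822 genes with a mean of 1 to 10 CPM over the 6 libraries, 482 (26.5%) were lowered at least 2-fold and 184 (10.1%) were raised. At 100 to 1000 CPM, 134 of 2167 genes (6.18%) were lowered and 112 (5.17%) were raised. The 123 genes at 1000 CPM or more were the class with more raised than lowered genes, 19 against 16. The lowered share did not fall steadily with level, as it was higher at 1000 CPM or more than at 100 to 1000 CPM. The median log2 fold change rose from −0.48 below 1 CPM to 0.15 in that highest class. Genes with a low mean could pass the filter on low counts through a single group, such as darkness, or through another strain. The part of the filter in the shares and medians of the low classes was not tested.

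The shares of all reads changed hands between the groups of genes, and as the genes were chosen on the same libraries, these shares are a description without a test. The 1213 lowered genes held 14.7%, 15.5% and 16.9% of the TMM-scaled CPM in the 3 dark libraries and 2.52%, 2.58% and 2.78% in the 3 light libraries. The 560 raised genes held 4.51%, 4.72% and 5.19% in darkness and 14.8%, 15.05% and 14.8% in light. In light the raised genes thus held about the share that the lowered genes had held in darkness, 14.9% against 15.7% in the means. With the 10 genes of most reads left out of each library, these shares were 10.2% and 12.4%. In WT the same lowered genes went from 13.4% ± 0.669 to 3.60% ± 0.0387, and in Δ21168 from 14.8% ± 1.11 to 4.43% ± 0.0906 (SD, n = 3 each). The same raised genes went from 3.71% ± 0.103 to 11.0% ± 0.455 in WT, and from 6.95% ± 0.532 to 14.2% ± 0.786 in Δ21168. The choice of the genes did not use these libraries of WT and Δ21168, other than through the filter on low counts, the scaling and the shared estimate of the spread.

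**Figure D2:**
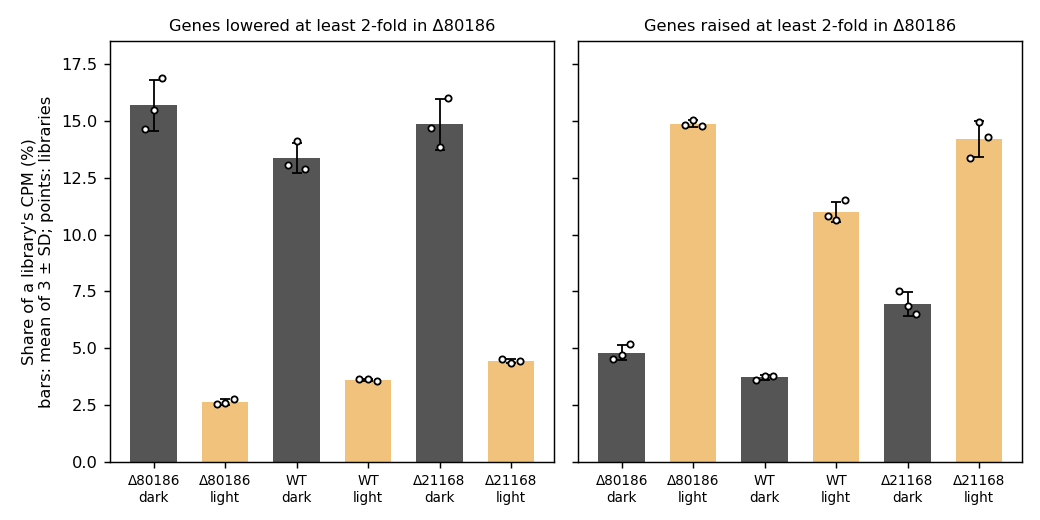
Share of each library's CPM (percent, vertical) held by the 560 genes raised and the 1213 genes lowered at least 2-fold by light in Δ80186, by strain and light condition, with bars for means of 3 libraries, error bars for the SD and points for single libraries. The lowered genes fall from 15.7% to 2.63% in Δ80186 and from 13.4% to 3.60% in WT.

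The genes with the most reads were partly replaced. Of the 10 genes with the highest mean CPM in darkness, 3 were also among the 10 highest in light. In the dark 10, 4 were lowered at least 2-fold, against 13.4% of all genes tested. In the light 10, 6 were raised at least 2-fold, against 6.17% of all. Of the 100 highest, 71 were shared, and 24 of the dark 100 were lowered and 21 of the light 100 raised at least 2-fold. The genes were ranked on the same libraries that gave the calls, which favours such counts by choice. The share of reads in the 10 highest genes of each library was 9.36% ± 0.104 in light and 8.60% ± 1.16 in darkness, a difference within the spread of the dark libraries (exact permutation test, two-sided p = 0.4, n = 3 each).

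Genes are named by a rule, namely the largest differences of mean CPM among genes called and without overlap of the groups. TrB1283W had 3176, 3503 and 4570.1 CPM in the dark libraries and 13040.1, 14369 and 14139 CPM in the light libraries. All light libraries were more than double any dark library, the log2 fold change was 1.89 ± 0.14 (SE; edgeR adjusted p = 5.8e-09), and the gene moved from place 14 to place 2 in the order of CPM. In WT it went from 1513 ± 33.1 to 1962 ± 281 CPM (SD, n = 3), a log2 fold change of 0.37 (edgeR adjusted p = 0.0207). In Δ21168 it fell from 7241 ± 952 to 3844 ± 432 CPM (SD, n = 3). The rise in Δ80186 was larger than that in WT by 1.51 ± 0.19 on the log2 scale (SE; edgeR interaction, adjusted p = 7.6e-06).

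TrD0140W had 2115, 3004 and 3909.7 CPM in darkness and 12998, 12074 and 12729 CPM in light. The dark libraries were spread more widely than the light ones and did not reach them (log2 fold change 2.07 ± 0.46 SE, edgeR adjusted p = 0.00197). Its response did not differ detectably from that of WT, where the level was lower, 138 CPM in darkness and 639.9 ± 509 CPM in light (SD, n = 3; difference of responses −0.15 ± 0.62 SE, edgeR adjusted p = 0.874).

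Both genes with the largest falls left the highest places by CPM, TrG0022C from place 2 to 1992 and TrC1166C from place 3 to 2092. TrG0022C had 10107, 14536 and 24294 CPM in darkness and 35.2, 64.3 and 250.2 CPM in light (log2 fold change −7.13 ± 1.02 SE, edgeR adjusted p = 6.6e-05). TrC1166C had 10692, 11475 and 12247 CPM in darkness and 30.8, 63.6 and 238 CPM in light (−6.70 ± 0.74 SE, edgeR adjusted p = 6.8e-06). In both genes light replicate 3 was the highest light library by far, and without it the log2 fold changes were −8.36 and −7.92. In WT they fell to 11.8 and 15.8 CPM in light, from 6469 and 13195 CPM in darkness. The fall of TrC1166C was smaller in Δ80186 than in WT by 3.01 ± 0.85 on the log2 scale (SE; edgeR interaction, adjusted p = 0.0128), and for TrG0022C the difference of 1.97 ± 1.14 did not pass the test (edgeR adjusted p = 0.187). The SE of the WT response alone was 0.85 for TrC1166C and 1.11 for TrG0022C, so the SE of both differences are too small. Without light replicate 3 these differences were 1.78 (edgeR adjusted p = 0.0267) and 0.75 (edgeR adjusted p = 0.599).

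**Figure D3:**
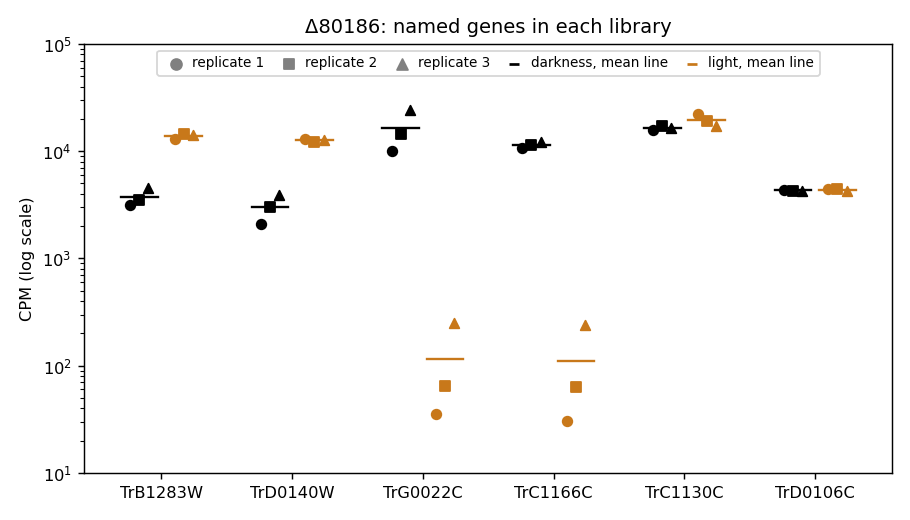
CPM of the named genes in each of the 6 libraries of Δ80186 on a logarithmic axis, 1 point per library with a line at the mean, darkness and light side by side and the shape giving the replicate. TrB1283W and TrD0140W are higher in all light libraries, TrG0022C and TrC1166C are lower by over 2 orders of magnitude in the means, and light replicate 3 is the highest light point of both. The steady genes TrC1130C and TrD0106C stand at the right.

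Single libraries stood apart in small sets of genes. Among genes averaging 10 CPM or more in light, light replicate 3 was at least 2-fold above both other light libraries in 15 genes, of which 10 were among the lowered genes, and below both in 0. Dark replicate 3 was at least 2-fold below both other dark libraries in 22 genes, of which 13 were among the lowered genes, and above both in 7. Of the 13 lowered genes, 6 belong to 1 run of neighbouring identifiers, TrE0659C to TrE0665C, described below. Dark replicate 1 was above both others in 14 genes, of which 2 were among the lowered genes. For comparison, lowered genes were 13.4% of all genes tested. The 3 other libraries had 0 to 5 such genes in a direction.

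Many genes kept their level in light. Of the genes tested, 2921 (32.2%) were not called and had a highest of the 6 values under 1.5 times the lowest. TrC1130C, the gene with the highest mean CPM in both conditions, had 15711, 17364 and 16438 CPM in darkness and 22451, 18988 and 17367 CPM in light. The lowest light value lies just above the highest dark value, and the difference did not pass the test (log2 fold change 0.25 ± 0.20 SE, edgeR adjusted p = 0.317). TrD0106C had 4382, 4268 and 4279 CPM in darkness and 4467, 4457 and 4219 CPM in light, overlapping values with a log2 fold change of 0.02 ± 0.09 (SE; edgeR adjusted p = 0.84). Of the 1213 lowered genes, 55 had 0 reads in all 3 light libraries. There were 8 genes with at most 1 read in each light library and at least 10 CPM in each dark library, with dark means of 10.8 to 78.1 CPM, and 0 genes with the opposite pattern. All 8 were also called lower in light in WT and in Δ21168, and all 8 were under 1 CPM in WT in light. The shares called lower in WT and Δ21168 were 75.4% and 71.6% of the 1213 lowered genes, and 28.6% and 29.7% of all genes tested.

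Genes with neighbouring identifiers moved together. The table holds no coordinates, and neighbours here are identifiers with the same letter and consecutive numbers. Per the labels the library kit was strand-specific, but the strand setting of the counting is not given, so reads of overlapping or antisense neighbours cannot be told apart. After a gene lowered at least 2-fold, the next identifier was lowered in 39.1% of 962 cases, against 13.4% of all genes tested, and the identifier 10 numbers on in 19.1%. After a raised gene the next was raised in 15.7% of 460 cases, against 6.17% of all, and the identifier 10 numbers on in 5.13%. Across 7805 pairs of next neighbours the log2 fold changes had a Pearson r of 0.34 (Spearman rho 0.20), and across pairs 10 numbers apart an r of 0.06. Pairs in which an ending C was followed by W had the highest r of the endings, 0.51 over 2302 pairs (rho 0.27), and pairs of W followed by C the lowest, 0.21 over 2324 pairs (rho 0.07). These pairs share their libraries, and the correlations are a description.

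Runs of neighbours were longer among lowered genes. Of the 1213 lowered genes, 613 were in 237 runs of at least 2 consecutive identifiers, and 34 runs held 4 or more. Of the 560 raised genes, 127 were in 55 runs of at least 2, and 5 runs held 4 or more. As there were more lowered than raised genes, longer runs of them are also more frequent by number alone, and no test of run length was made. Lowered genes were also more frequent near the ends of the numbering. Among the 522 tested genes within the first or last 50 numbers of a letter, 193 (37.0%) were lowered at least 2-fold, against 1020 of the 8557 others (11.9%), while raised genes were 9.39% and 5.97%. By letter, the lowered share went from 10.9% for A to 17.2% for F.

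The longest lowered runs held 7 genes each. TrE0659C to TrE0665C had dark means of 10.8 to 2216 CPM and light means of 0 to 63.9 CPM, and all 7 were lowered in WT and in Δ21168 as well. Of all 1213 lowered genes, 75.4% were called lowered in WT and 71.6% in Δ21168, and of all genes tested 28.6% and 29.7%. In the first 6 of the 7 genes of this run dark replicate 3 was at least 2-fold below the other dark libraries. The first gene, TrE0659C, had 545.9, 527.8 and 60.3 CPM in darkness and 58.0, 67.6 and 66.0 CPM in light, so that dark replicate 3 stood within the light values. All 7 were called with and without that library. The median log2 fold change of the run was −6.64, and −7.16 without dark replicate 3. The gene in the third place had 0 reads in the light libraries and was at least 345-fold lower there, taking 3 reads over the 3 libraries as the floor.

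TrG0017C to TrG0023W, the other run, includes TrG0022C. Its dark means were 2.79 to 16312 CPM and its light means 0 to 117 CPM. Dark and light values did not overlap in any of the 7 genes, which the choice of called genes largely fixes. In WT and in Δ21168, 6 of the 7 were lowered in each, against 28.6% and 29.7% of all genes tested. TrG0023W had 0 reads in light and was at least 32.7-fold lower by the same floor.

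The longest raised runs held 5 genes each and had low levels. TrE0012W to TrE0016W had dark means of 0.142 to 0.827 CPM and light means of 1.61 to 7.07 CPM, with log2 fold changes of 2.92 to 4.87 (largest edgeR adjusted p = 0.00088). In WT all 5 were raised and reached 7.30 to 33.5 CPM in light. In Δ21168 they stayed at or under 0.359 CPM in light, and 0 of the 5 were called by edgeR in either direction, with 0 at an unadjusted p under 0.05 (DESeq2 was not run on that comparison). TrC0338W to TrC0342W, which all end in W, had dark means of 1.31 to 6.62 CPM and light means of 5.73 to 40.6 CPM, with log2 fold changes of 1.15 to 2.61 (largest edgeR adjusted p = 3.9e-05). All 5 were raised in WT and 2 of them in Δ21168, where 4 had an unadjusted edgeR p under 0.05. Of all 560 raised genes, 63.2% were called raised in WT and 48.8% in Δ21168, and of all genes tested 32.5% and 30.5%.

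**Figure D4:**
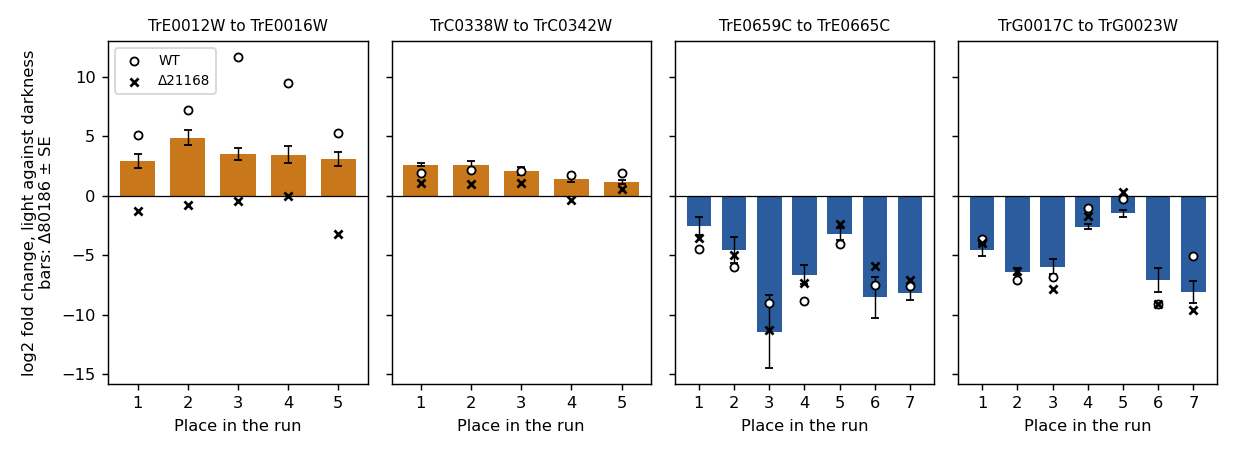
Fitted log2 fold change, light against darkness, for each place in the 4 named runs, with bars and SE for Δ80186, circles for WT and crosses for Δ21168. Both lowered runs lie below 0 in every place in Δ80186, and the run from TrE0012W to TrE0016W is above 0 in Δ80186 and WT and below 0 in Δ21168, where no gene of it was called. Fitted values of genes with 0 reads in a group, such as TrE0661W and TrG0023W, depend on the fit's prior count.

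The light response of Δ80186 was set beside that of WT with gene sets chosen in the other strains, which share no library with Δ80186. In WT, 775 genes (8.54%) were raised and 1407 (15.5%) were lowered at least 2-fold. Of the genes raised in WT, 434 (56.0%) were raised in Δ80186, 72 were lowered and 269 were not called, against 27.9% raised and 25.4% lowered among all genes tested in Δ80186. Of the genes lowered in WT, 989 (70.3%) were lowered in Δ80186, 59 were raised and 359 were not called. Median log2 fold changes in Δ80186 were 0.61 for the first set, against 1.54 in WT, and −1.46 for the second, against −2.26 in WT. The sets were chosen on the WT values, which are therefore the more extreme by choice, and the median of all genes tested in Δ80186 was 0.04.

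In Δ21168, 664 genes (7.31%) were raised and 1298 (14.3%) were lowered at least 2-fold, and of these 332 (50%) were raised and 887 (68.3%) were lowered in Δ80186, again against 27.9% and 25.4% of all genes tested. A smaller set holds the genes changed at least 2-fold in both other strains. Of 384 genes raised in both, 238 (62.0%) were raised in Δ80186, and of 884 lowered in both, 710 (80.3%) were lowered, 634 of them at least 2-fold. The medians in Δ80186 were 0.81 and −2.04 on the log2 scale.

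In the reverse direction, 354 of the 560 genes raised in Δ80186 (63.2%) were called raised in WT and 273 (48.8%) in Δ21168, and 174 in neither, where 32.5% and 30.5% of all genes tested were raised. Of the 1213 lowered genes, 915 (75.4%) were called lowered in WT and 869 (71.6%) in Δ21168, and again 174 in neither, where 28.6% and 29.7% of all genes tested were lowered. Across all 9079 genes the responses of Δ80186 and WT had a Pearson r of 0.71 (Spearman rho 0.51), and those of Δ80186 and Δ21168 an r of 0.65 (rho 0.45). Genes are not independent replicates, and these values are a description.

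The responses themselves differed in many genes. The interaction, the log2 light response of Δ80186 minus that of WT, was called for 3798 genes (41.8%), 1857 positive (20.5%) and 1941 negative (21.4%). The same difference from Δ21168 was called for 3977 genes (43.8%). The libraries of Δ21168 held 7945697 to 12415791 counts. Its dark libraries had the widest spread, with a square root of the common dispersion of 0.234, against 0.0766 to 0.130 in the other groups. They also enter the shared estimate of the spread. Of the 560 genes raised in Δ80186, 247 had a positive interaction, having risen more than in WT or gone the other way there, and 61 rose less than in WT. Of the 1213 lowered genes, 386 had a negative interaction, having fallen more than in WT or gone the other way there, and 188 fell less than in WT. Both sets were chosen for large responses in Δ80186, so these counts lean towards larger responses by choice. Called in opposite directions in Δ80186 and WT, with the interaction called too, were 585 of the 9079 genes tested, of which 323 were raised and 262 lowered in Δ80186. Changes of at least 2-fold in both strains were found in 61 of them.

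**Figure D5:**
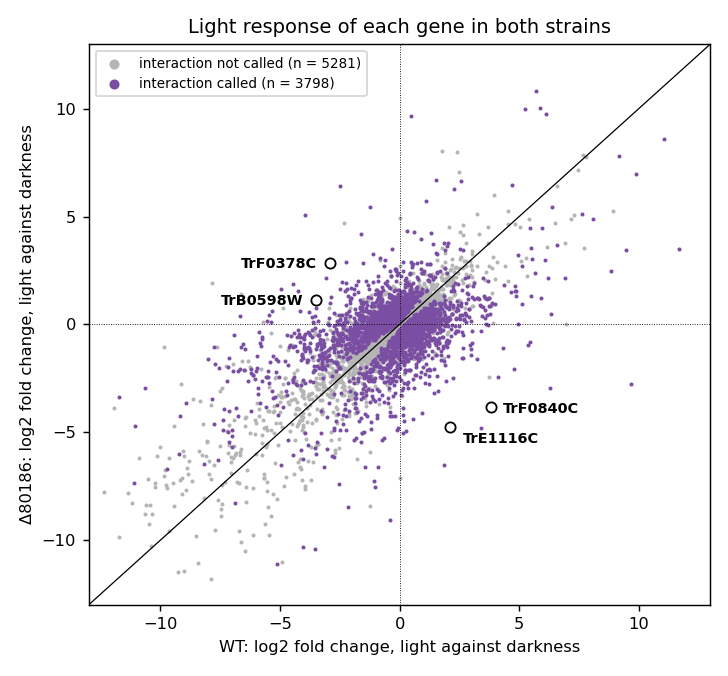
Log2 fold change, light against darkness, of each tested gene in WT (horizontal) and in Δ80186 (vertical), with purple points for the 3798 genes called in the interaction and the diagonal marking equal responses. TrF0378C and TrB0598W lie in the upper left, raised in Δ80186 and lowered in WT, and TrF0840C and TrE1116C in the lower right.

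The genes named here have the largest interactions among those that moved in opposite directions, and were picked for that difference. TrF0378C had 6.55, 9.51 and 10.1 CPM in the dark libraries of Δ80186 and 73.7, 60.1 and 54.7 CPM in light (log2 fold change 2.85 ± 0.33 SE, edgeR adjusted p = 5.5e-06). In WT it had 122, 86.4 and 65.9 CPM in darkness and 5.88, 13.6 and 16.3 CPM in light. The light level of Δ80186 was thus near the dark level of WT and its dark level near the light level of WT. In Δ21168 its level rose too, by 2.05 on the log2 scale (edgeR adjusted p = 0.00211).

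TrB0598W had 6.83, 18.6 and 11.2 CPM in darkness and 28.2, 25.5 and 27.7 CPM in light in Δ80186 (1.15 ± 0.40 SE, edgeR adjusted p = 0.0264). In WT it had 86.0, 139 and 69.6 CPM in darkness and 5.24, 8.10 and 12.5 CPM in light. The fall in WT of −3.49 on the log2 scale is the larger part of its interaction of 4.64 ± 0.57.

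TrE1116C had 180.5, 147 and 119 CPM in darkness and 7.06, 4.89 and 4.64 CPM in light in Δ80186 (−4.74 ± 0.30 SE, edgeR adjusted p = 1.3e-08). In WT it rose from 459, 529 and 469 CPM to 1951, 2061 and 2285 CPM. In Δ21168 it rose as well, from 457 to 5140.3 CPM in the means, so that Δ80186 was the 1 strain of the 3 in which light lowered it. The difference from the WT response was −6.85 ± 0.39 and that from the Δ21168 response −8.23 ± 0.40 on the log2 scale (SE; edgeR interactions, adjusted p = 2.1e-08 and 4.9e-09).

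TrF0840C had 2.79, 2.36 and 2.48 CPM in darkness in Δ80186, and 0, 5 and 1 reads in the light libraries. In WT it rose from 8.77, 9.84 and 7.27 CPM to 124, 136 and 102 CPM. The interaction of −7.65 ± 0.75 (SE; edgeR adjusted p = 1.8e-06) rests on these few light reads, and leaving out light replicate 2 gave −9.45, light replicate 1 −7.03. Its SE is below the 0.77 of the response in Δ80186 alone, and is thus too small.

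The mating type genes mat1-1-1, which encodes an alpha box transcription factor, mat1-1-2 and mat1-1-3, which encodes an HMG box factor, are the rows that the table names. Each had 0 reads in all 6 libraries of Δ80186, which allows a level of up to 0.0372 CPM over these libraries, for counting error only. In the 18 libraries together mat1-1-1 had 5 reads and the others 0. Their response to light could not be measured. QM6a is known as a strain of the other mating type, MAT1-2.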

How the data were processed

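The authors deposited raw, whole-number gene counts in a table of 18 library columns. Each column was assigned through the description of its sample, which left 0 columns unused. Per the labels, RNA of mycelium was depleted of ribosomal RNA and sequenced with a stranded kit. Reads were aligned with HISAT2 2.2.1, per the submitters' processing notes. The counts were deposited under a name that holds featureCounts, a counting tool. Not given in the sources used here are the strand setting of the counting, the handling of multiply aligned reads, read trimming and the build of the genome. Of 9116 genes in the reference table used, 0 matched an identifier, so no gene names, gene lists or sequences could be used.

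Genes were kept with filterByExpr (minimum count 10, minimum total count 15). Tests were run in R 4.3.3 with edgeR 4.0.16, using TMM scaling and robust quasi-likelihood F tests fitted to the 18 libraries together, 1 coefficient for each group, which leaves 12 residual degrees of freedom. P-values were adjusted by Benjamini and Hochberg across all 9079 genes tested, and the threshold was 0.05. Each SE is the size of the log2 fold change over the square root of F. This is an approximation, and for interactions with very large responses it can be too small, as for TrC1166C, TrG0022C and TrF0840C. The interaction subtracts the log2 light response of another strain from that of Δ80186. Single values per library were compared by exact permutation tests.

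The comparison, the rules for named genes and the lists of genes were chosen with earlier results of these data known. Named by rule were, per comparison, at most 2 rises and 2 falls: in Δ80186 the largest differences of mean CPM among called genes without overlap, for the interaction the largest among genes called in opposite directions in Δ80186 and WT with at least 20 CPM in 1 of the 4 groups, and the 2 highest steady genes. The 2 longest runs in each direction and the mating type genes were named as well. TrD0367C, TrE0661W and TrG0023W are outside the rule and were named after their values were seen.

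Replicate libraries differed by more than sampling noise, and none was counted as a duplicate. On simulated counts of 9079 genes with 200 changed, the comparison of light with darkness in Δ80186 found 75% of 2-fold and 86% of 4-fold changes, and 4.73% of its calls were false. The interaction with WT found 61% and 90%, and 6.21% of its calls were false. These counts were drawn from the fit's own model, with as many genes raised as lowered, so the rates hold under that model. The data had far more genes called and more large losses than gains, and error rates under such conditions were not tested. Alternatives were DESeq2 1.42.0, library totals as the scaling, no filter, a fit of the groups compared alone, the replicate number as a block, and each library left out in turn.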

Additional observations from a re-analysis of the deposited data

Results flagged for a closer look

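These values are listed because the light response of Δ80186 differed from that of another strain by the interaction test of edgeR (adjusted p under 0.05). The difference was called for 3798 genes against WT and for 3977 against Δ21168. Among the genes named above, the log2 response of TrB1283W was larger in Δ80186 by 1.51 than in WT and by 2.80 than in Δ21168. The response of TrD0140W was larger by 2.47 than in Δ21168, and that of TrC1166C was less negative by 3.01 than in WT (1.78 without light replicate 3). The genes with opposite directions in Δ80186 and WT were picked for that difference, which was 5.77 for TrF0378C, 4.64 for TrB0598W, −7.65 for TrF0840C and −6.85 for TrE1116C. Against Δ21168 the difference was 1.82 for TrB0598W, −2.85 for TrF0840C and −8.23 for TrE1116C. The steady genes TrC1130C and TrD0106C differed from Δ21168 by 1.73 and 0.55, since both fell there.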

How the results depend on the processing

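Among the alternative values, 143 for counts and shares stayed within the tolerance of the value reported (1.5 times for counts, 1 SD for shares) and 3 moved, while all 202 for single genes kept their side of the threshold. Called genes kept their direction, and of those not called the sign turned in 5 of 11 for TrD0106C (light against darkness) and in 2 of 17 for the interaction of TrD0140W. The alternatives for the interactions of TrB1283W, TrD0140W, TrG0022C and TrC1166C, and the block for runs, were chosen after seeing the data. With the 10 genes of most reads left out of each library, the share of the lowered genes was 12.4% in darkness and 2.90% in light. That of the raised genes was 10.2% in light, and these shares are the 3 values that moved. Genes called were 4156 to 4521 with 1 library left out, 4846 with DESeq2 and 5392 in the fit of the groups compared alone. The interaction with WT was called for 3380 to 3613 genes with 1 library left out. With the replicate number as a block, 4794 genes were called for light against darkness and 3722 for the interaction, and no call changed among the named genes and run members that were refitted. The numbers were not taken to pair libraries, since deviations of same-numbered dark and light libraries correlated at −0.02 to 0.02 in Δ80186 and at −0.01 to 0.15 in WT, and 0 of the 3 dark libraries of Δ80186 matched its own number best. If runs may pass over untested identifiers, 48 lowered and 6 raised runs held 4 or more genes, against 34 and 5. Depth limits genes under about 1 CPM, where a library holds few reads.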
